A study of Mus musculus with 16 samples.

Results

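The 10 genes described here encode the receptors Ror1 and Ror2, the ligands Wnt5a and Wnt4, the agonist Rspo1, the receptors Fzd1 and Fzd2, the secreted antagonist Sfrp4, the transducer Ctnnb1 and its target Axin2, out of 57010 genes counted in mouse granulosa cells (mGCs). They were found by gene symbol in both count tables, and all 10 were present in each. The set was selected on the behaviour of Ror1 and Wnt5a in cultured mGCs given 14,15-EET against PBS, so for these 10 genes that contrast is described without a test. The rule of selection did not use the contrast of mice with endometriosis against sham mice, which was tested. Earlier results of these data were known, however, when the genes were chosen.

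WNT proteins are secreted lipid-modified ligands that bind Frizzled receptors. In the canonical branch, binding with the LRP co-receptors stops the destruction of β-catenin, the product of Ctnnb1, which then enters the nucleus and works with TCF and LEF factors. ROR1 and ROR2 are receptor tyrosine kinase-like proteins that bind WNT5A and act mainly in branches that do not need β-catenin, such as planar cell polarity. R-spondins strengthen WNT signals through the LGR receptors, while the SFRP and DKK families restrain them. In the ovary, Wnt4 and Rspo1 are known for their part in female gonad development, and Sfrp4 is known as a transcript of luteinizing granulosa cells.

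The mGCs were measured by poly(A) RNA-seq in 4 groups. The Con group held fresh mGCs of 5 ICR mice after sham surgery without grafted tissue, and the EM group held fresh mGCs of 5 ICR mice that carried endometrium of donor mice sutured to the mesentery of the intestine. The females were bought at 6 weeks of age, kept their ovaries, and per the methods the recipients received 17β-estradiol followed by a washout before ovulation was induced with PMSG or HCG. The methods do not state whether the sham mice also received estradiol. If they did not, graft and hormone cannot be told apart between EM and Con. By the methods, the PBS group held mGCs of EM mice kept for 24 h in DMEM/F12 with 5% FBS. The EET group held such cells given 100 nM 14,15-EET for the same time, with 3 libraries each. A figure legend of the paper instead places 24 h of culture before the addition. It then gives 24 h more with 14,15-EET or, in the PBS group, with PBS of equal volume. The total time in culture therefore differs between these sources. Both cultured groups were drawn from the cells of 6 EM mice, so no cultured library came from sham mice, and the model rests on grafted tissue from other animals. The added 14,15-EET is an epoxide of arachidonic acid, a lipid mediator formed by cytochrome P450 enzymes.

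The fresh libraries held 14229123 to 15999234 counts and the cultured ones 21384686 to 29482826. The granulosa label was checked on the transcription factor Foxl2, which stood at 177 to 299 CPM in fresh and 105 to 136 CPM in cultured libraries. Fshr, the FSH receptor, stood at 46.3 to 193 CPM in fresh libraries and at 4.13 to 5.48 CPM in cultured ones, and the aromatase gene Cyp19a1 was at most 0.324 CPM in culture, while the inhibin subunit Inha remained at 1820 to 2650 CPM there. The 10 granulosa markers together summed to 11600 to 15800 CPM in Con, 6010 to 20800 CPM in EM, 5380 to 5930 CPM in PBS and 5050 to 5450 CPM in EET. EM-mGC-3 stood apart, with 21.8% of its counts on mitochondrial genes against 6.76% to 11.1% in the other fresh libraries, and with 15800 CPM of summed red blood cell markers against 2420 to 5690 CPM. Leukocyte markers summed to 174 to 363 CPM in Con and 273 to 683 CPM in EM, with positive fold changes for all 8 and 0 called by edgeR. The libraries are bulk samples, in which fewer cells of a type and less RNA per cell cannot be told apart.

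On the deposited coordinates, which the submitters' notes place on GRCm39, the genes lie at chr4:99952988-100301962 on the + strand for Ror1 (ENSMUSG00000035305), chr13:53263348-53440160 on the - strand for Ror2 (ENSMUSG00000021464), chr14:28226707-28249405 on the + strand for Wnt5a (ENSMUSG00000021994) and chr4:137004800-137027037 on the + strand for Wnt4 (ENSMUSG00000036856). Rspo1 (ENSMUSG00000028871) lies at chr4:124880223-124902892 on the + strand, Fzd1 (ENSMUSG00000044674) at chr5:4803839-4808035 on the - strand, and Fzd2 (ENSMUSG00000050288) at chr11:102495222-102498884 on the + strand. Sfrp4 (ENSMUSG00000021319) lies at chr13:19807274-19817164, Ctnnb1 (ENSMUSG00000006932) at chr9:120758282-120789573 and Axin2 (ENSMUSG00000000142) at chr11:108811175-108841609, all on the + strand. Ror1, Wnt5a, Rspo1, Ctnnb1 and Axin2 overlap other counted genes, of which those within Ctnnb1, including the antisense gene Ulk4, held 1544 counts over the fresh libraries and those within the others at most 17 there. In culture the antisense transcript within Wnt5a, Gm2670, held 463 counts summed over the 6 cultured libraries against 7610 to 11088 counts of Wnt5a per library.

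RefSeq promoter windows on GRCm38.p6 were on hand for 7 of the 10 genes, as 8 windows of 250 bases before the start of transcription. The windows of Ror1, whose level after 14,15-EET led to the choice of the set, and of Axin2, a textbook target of β-catenin, are shown to set the receptor gene beside the target gene. Capitals would mark a TCF or LEF core, searched on both strands as the letters CTTTG followed by 2 letters that are each A or T, and neither window holds one.
Ror1, chr4:100095541-100095790, + strand: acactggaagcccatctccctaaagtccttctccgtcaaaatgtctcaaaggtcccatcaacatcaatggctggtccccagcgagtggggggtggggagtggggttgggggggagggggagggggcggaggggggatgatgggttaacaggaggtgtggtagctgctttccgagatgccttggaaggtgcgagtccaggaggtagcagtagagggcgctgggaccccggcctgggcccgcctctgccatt
Axin2, chr11:108920099-108920348, + strand: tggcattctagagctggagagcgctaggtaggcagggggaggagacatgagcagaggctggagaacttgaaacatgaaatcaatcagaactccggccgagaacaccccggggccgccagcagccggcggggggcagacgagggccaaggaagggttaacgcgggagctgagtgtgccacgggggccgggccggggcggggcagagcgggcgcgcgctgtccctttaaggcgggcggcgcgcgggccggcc
These letters were found in 0 of the 8 windows of the set and in 14.8% of 32817 RefSeq windows of the same length. No match says only that the letters are not in the window. The Ror1 window is 62.4% G and C with 8 CpG, the Axin2 window is 69.2% with 24 CpG, and the median over all windows was 52.4% with 6 CpG.

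Levels of different genes are compared in TPM, which divides counts by exon length before scaling. In the Con group, Sfrp4 was highest with 757 ± 305 TPM (SD, n = 5), and Ctnnb1 followed with 400 ± 50.5 TPM. Wnt4 had 56.8 ± 22.2 TPM, Rspo1 25.1 ± 4.3 TPM, Fzd2 19.8 ± 2.86 TPM, Fzd1 16.6 ± 1.43 TPM, Axin2 14.9 ± 2.0 TPM and Wnt5a 12.3 ± 3.27 TPM, of which Rspo1 and Fzd2, Fzd2 and Fzd1, Fzd1 and Axin2, and Axin2 and Wnt5a were neighbours that overlapped within 1 SD. Ror1 and Ror2 were the lowest of the set at 3.66 ± 1.22 and 1.92 ± 0.772 TPM, and these also overlapped within 1 SD. In the cultured PBS group, Sfrp4 (1890 ± 473 TPM, n = 3) and Ctnnb1 (662 ± 5.08 TPM) again came first, followed by Wnt5a at 177 ± 13.8 TPM. Fzd2 and Wnt4 overlapped at 88.6 ± 4.34 and 84.0 ± 7.25 TPM, as did Axin2 and Fzd1 at 37.7 ± 3.36 and 34.4 ± 2.35 TPM. Ror1 had 3.81 ± 0.111 TPM there, while Rspo1 and Ror2 were at 0.276 ± 0.0719 and 0.217 ± 0.132 TPM.

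**Figure D1:**
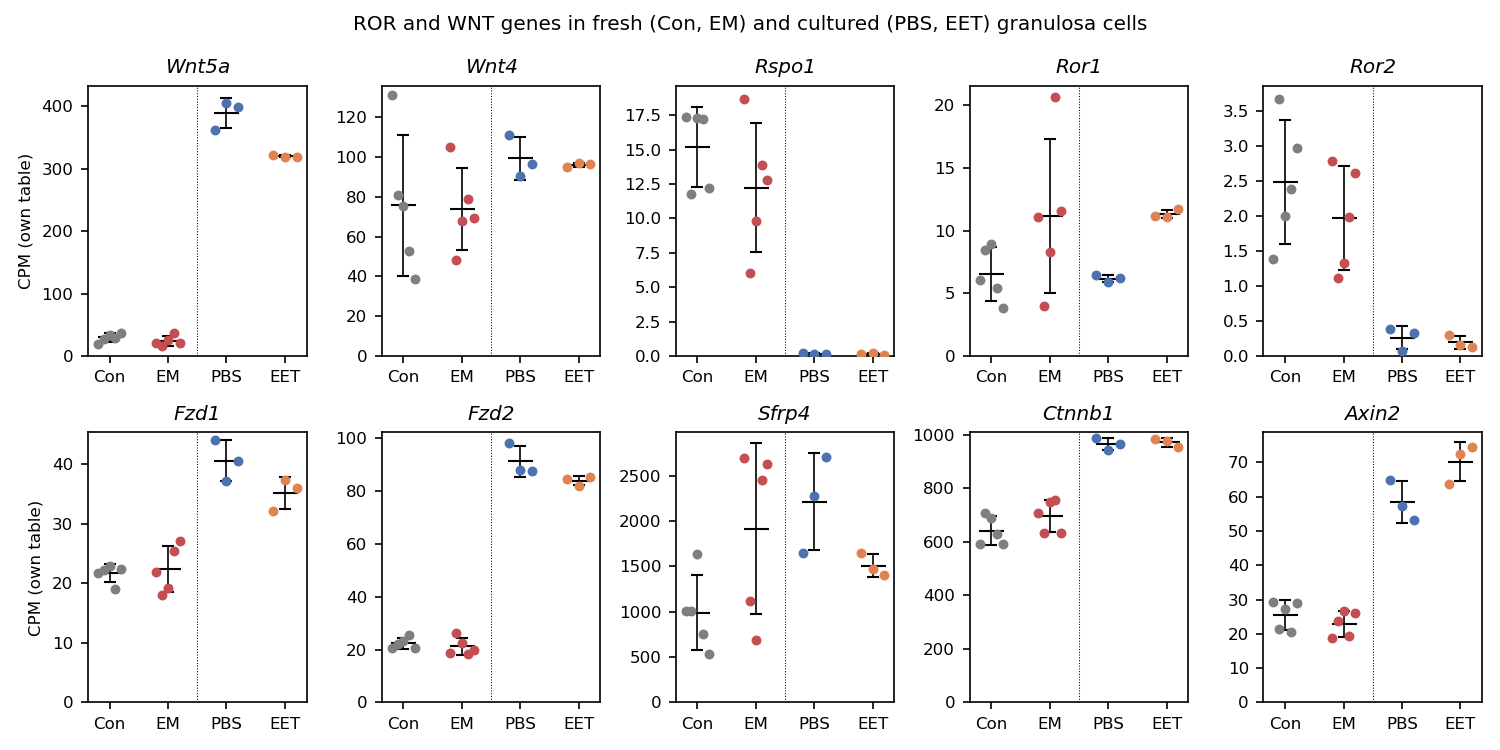
Level of each of the 10 genes in CPM, scaled within the fresh table (Con, EM) or the cultured table (PBS, EET), with 1 point per library and the mean ± SD (n = 5, 5, 3 and 3). Fresh points overlap between Con and EM for every gene, Ror1 points of the EET group lie at 11.1 to 11.7 CPM above PBS points of 5.89 to 6.45 CPM, and Wnt5a stands at 319 to 406 CPM in culture against 15.3 to 37.5 CPM in fresh cells.

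The first comparison asked how the granulosa cell transcriptome of EM mice differs from that of sham mice. None of the 10 genes was called (0 of 10 at an adjusted p under 0.05 from edgeR's quasi-likelihood test, against 0% of all 17229 genes tested). At an unadjusted p under 0.05 there was 1 gene, Sfrp4, against 9.44% of all genes, and DESeq2 called 0 of the 10 against 0.632% of 18364 genes. No gene of the set had groups that did not overlap, against 1.69% of all genes. Of the 10 fold changes, 4 were positive and 6 negative, with a median log2 value of -0.06 beside -0.01 over all genes.

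Among the receptors, Ror1 stood at 6.05, 8.46, 8.94, 5.44 and 3.82 CPM in Con-mGC-1 to Con-mGC-5, and at 11.1, 4.01, 8.30, 20.7 and 11.6 CPM in EM-mGC-1 to EM-mGC-5. EM-mGC-1, EM-mGC-4 and EM-mGC-5 lay above every Con library, while EM-mGC-2 lay near the lowest of them. In the EM group its log2 fold change was 0.77 ± 0.37 (SE; edgeR adjusted p = 0.54), a ratio of 1.70. It was 0.42 without EM-mGC-4 and 0.98 without EM-mGC-2, so that 1 mouse moved it by over 1.5 times. Counts behind these values ran from 61 to 303 per library. Ror2, the second ROR receptor, had 16 to 60 counts per fresh library. Its levels of 1.38, 3.68, 2.0, 2.39 and 2.98 CPM in the Con group overlapped with 2.79, 1.12, 1.33, 1.98 and 2.62 CPM in the EM group (log2 fold change -0.34 ± 0.34, edgeR adjusted p = 0.76), and this fold change was -0.495 without EM-mGC-1 and -0.15 without Con-mGC-2.

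Fzd1 and Fzd2, which bind WNT ligands through a cysteine-rich domain, varied least among the 4 receptors of the set. Fzd1 ranged from 19.1 to 22.9 CPM in the Con group and from 18.1 to 27.1 CPM in the EM group, and its log2 fold change was 0.04 ± 0.13 (edgeR adjusted p = 0.929). For Fzd2 the ranges were 20.5 to 25.6 CPM and 18.4 to 26.2 CPM, and EM differed from Con by -0.08 ± 0.12 on the log2 scale (edgeR adjusted p = 0.845). The sign for Fzd1 turned when EM-mGC-4 or EM-mGC-5 was left out.

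Wnt5a, the ligand of the ROR receptors, was at 19.7, 27.6, 34.1, 29.3 and 37.5 CPM in the Con libraries and at 20.7, 15.3, 25.9, 36.0 and 20.6 CPM in the EM libraries. The lowest value belonged to EM-mGC-2, and EM-mGC-4 lay within the upper range of Con. On the log2 scale EM differed from Con by -0.32 ± 0.22 (edgeR adjusted p = 0.656), a value that was -0.525 without EM-mGC-4 and -0.20 without EM-mGC-2. EM-mGC-4 thus carried the highest Wnt5a and the highest Ror1 of the EM group. Wnt4 ranged more widely, at 131, 81.0, 75.1, 52.8 and 38.4 CPM in Con and 105, 48.0, 67.6, 78.8 and 69.5 CPM in EM. The EM values lay inside the Con range, with a log2 fold change of -0.04 ± 0.29 (edgeR adjusted p = 0.974) whose sign turned without Con-mGC-1 or EM-mGC-2.

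Rspo1, the R-spondin that the ovary uses in development, had 17.4, 11.8, 17.3, 17.2 and 12.2 CPM in the Con group and 18.7, 6.05, 9.79, 13.9 and 12.8 CPM in the EM group. EM-mGC-1 was highest and EM-mGC-2 lowest of all 10 fresh libraries. The log2 fold change of -0.31 ± 0.26 (edgeR adjusted p = 0.715) was -0.13 without EM-mGC-2 and -0.51 without EM-mGC-1. Beside it, the summed surface epithelial markers were also highest in EM-mGC-1 (276 CPM) and lowest in EM-mGC-2 (105 CPM), against 187 to 259 CPM in the Con group. Stromal, smooth muscle and endothelial sums were also lowest of all fresh libraries in EM-mGC-2, at 641, 115 and 81.3 CPM. None of them was highest in EM-mGC-1, and granulosa markers were highest in EM-mGC-2, at 20800 CPM. The part of these cell mixtures in the Rspo1 values was not tested. For the 8 surface epithelial markers, 4 fold changes were positive and 4 negative in the EM group, and 0 were called by edgeR.

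Sfrp4, a decoy that binds WNT proteins outside the cell, had the lowest unadjusted p of the set. Its levels were 1010, 1010, 1640, 756 and 530 CPM in the Con libraries and 2700, 1120, 688, 2450 and 2630 CPM in the EM libraries. As for Ror1, EM-mGC-1, EM-mGC-4 and EM-mGC-5 exceeded every Con library, whereas EM-mGC-2 and EM-mGC-3 fell within the Con range. With a log2 fold change of 0.96 ± 0.39 (edgeR adjusted p = 0.51), its ratio was 1.94, and the log2 value ranged from 0.80 to 1.22 with a library left out. The summed luteal markers of EM-mGC-1, EM-mGC-4 and EM-mGC-5 were 17800, 16300 and 14500 CPM against 12200 and 14600 CPM in EM-mGC-2 and EM-mGC-3. Con libraries spanned 11600 to 16700 CPM, so only EM-mGC-1 lay above them. The summed oocyte markers were 89.3, 213 and 428 CPM against 620 and 745 CPM, with Con libraries at 307 to 680 CPM. EM-mGC-1 and EM-mGC-4 lay below this Con range, EM-mGC-5 and EM-mGC-2 inside it and EM-mGC-3 above it. Granulosa markers summed to 10700, 6010 and 11500 CPM in EM-mGC-1, EM-mGC-4 and EM-mGC-5, below the Con range of 11600 to 15800 CPM, and to 20800 CPM in EM-mGC-2, above it, with EM-mGC-3 inside at 11800 CPM. The part of these cell mixtures in the Ror1 and Sfrp4 values was not tested. No marker of the granulosa (10), luteal (6) or oocyte (6) lists was called by edgeR between EM and Con, with 2, 5 and 1 positive fold changes.

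The transducer Ctnnb1 lay between 592 and 707 CPM in Con and between 633 and 755 CPM in EM (log2 fold change 0.11 ± 0.11, edgeR adjusted p = 0.756). Axin2, the scaffold of the β-catenin destruction complex that β-catenin itself induces, was at 29.4, 21.4, 27.3, 20.5 and 29.1 CPM in Con and at 18.7, 23.6, 26.6, 19.3 and 26.1 CPM in EM. The groups overlapped nearly throughout, and its log2 fold change was -0.16 ± 0.15 (edgeR adjusted p = 0.744).

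The set was placed among 136 genes of WNT signalling listed by role. Of these, 113 were tested between EM and Con and 0 were called by edgeR, with 8 at an unadjusted p under 0.05 (7.08%, 4 higher and 4 lower, against 9.44% of all genes), 42 positive and 71 negative fold changes and a median log2 fold change of -0.05. The 3 genes outside the set with the lowest p were Cxxc4, Frzb and Porcn, none of which passed. Cxxc4, an inhibitor of Dishevelled, was at 20.2, 27.9, 21, 29.0 and 36.4 CPM in Con and at 17.1, 16.4, 17.8, 16.2 and 12.6 CPM in EM, and was the single gene of the list whose groups did not overlap, against 1.69% of all genes. Its log2 fold change was -0.75 ± 0.17 (edgeR adjusted p = 0.348), and the adjusted p from DESeq2 was 0.0196. The summed stromal markers did not overlap either, at 1600 to 1760 CPM in Con and 641 to 1490 CPM in EM with 7 of 8 fold changes negative and 0 called, and their part in the Cxxc4 values was not tested. Frzb, a secreted antagonist like Sfrp4, ranged from 21.4 to 30.4 CPM in Con and from 13.6 to 23.2 CPM in EM (log2 fold change -0.50 ± 0.16, edgeR adjusted p = 0.437).

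Porcn encodes the acyltransferase that adds the lipid WNT proteins need for secretion. It was at 13.5 to 18.0 CPM in the Con group and at 30.3, 19.1, 7.88, 46.3 and 137 CPM in the EM group, so that EM-mGC-5 was highest and EM-mGC-3 was below every Con library. The log2 fold change of 1.58 ± 0.57 (edgeR adjusted p = 0.474) was 0.68 without EM-mGC-5. Wnt10b, the WNT ligand with the highest mean per length in the Con group (104 ± 53.0 TPM, overlapping Wnt4 within 1 SD), followed the same libraries, with 68.3, 150, 186, 61.4 and 82.0 CPM in Con and 395, 121, 47.4, 334 and 388 CPM in EM. Its log2 fold change was 1.23 ± 0.51 (edgeR adjusted p = 0.51). Ror1, Sfrp4, Wnt10b and Porcn therefore all exceeded every Con library in EM-mGC-1, EM-mGC-4 and EM-mGC-5, which is given as a description of 3 libraries. Porcn also did so in EM-mGC-2, at 19.1 CPM.

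**Figure D2:**
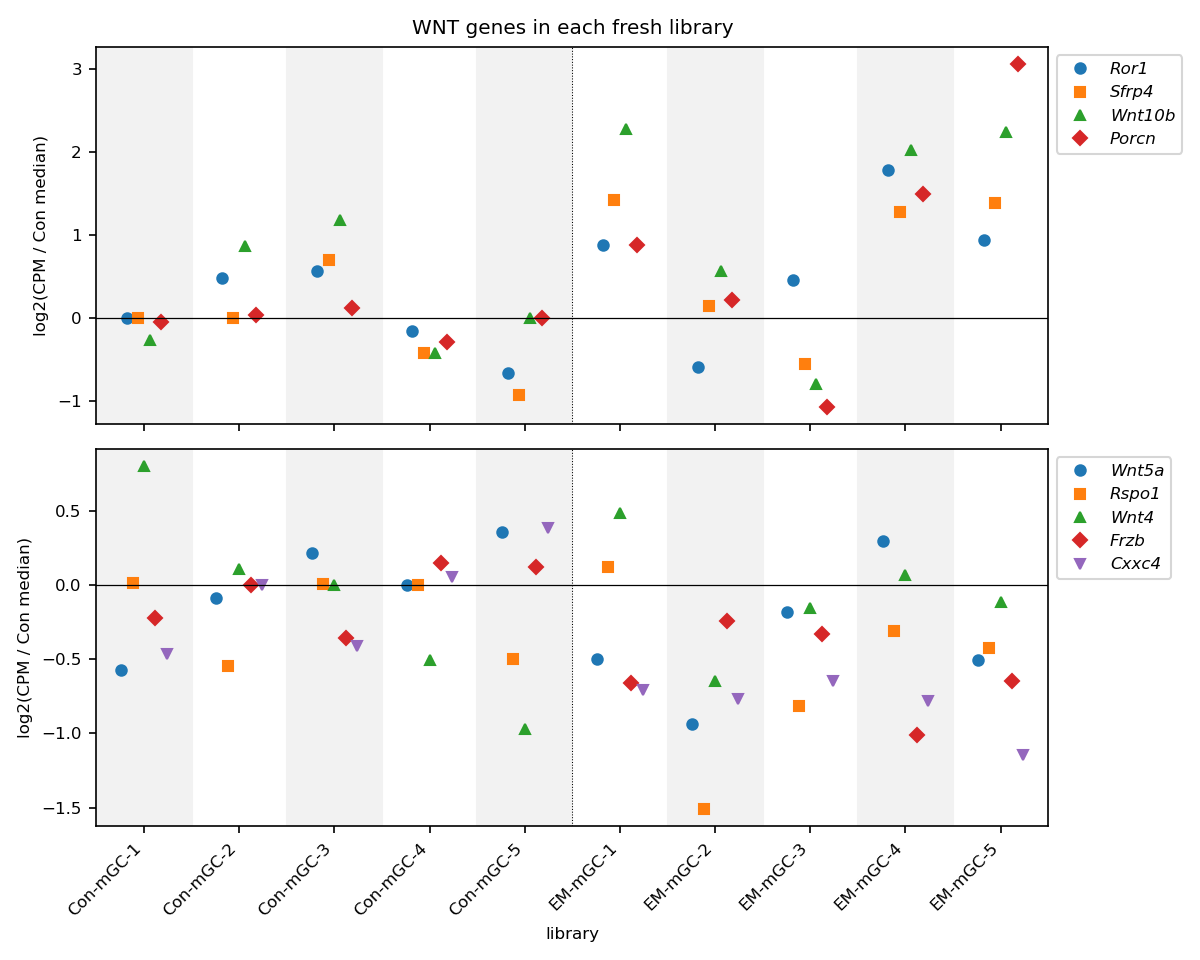
Level of 9 WNT genes in each fresh library as log2 of its CPM over the Con median, on a linear axis of log2 values, with 1 point per gene and library. Ror1, Sfrp4, Wnt10b and Porcn (top) lie above 0 in EM-mGC-1, EM-mGC-4 and EM-mGC-5, and Cxxc4 (bottom) is lower in all 5 EM libraries than in every Con library. Sfrp4, Wnt10b and Porcn also lie above 0 in EM-mGC-2, and Ror1 in EM-mGC-3.

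By role, the tested genes with the highest mean per length in the Con group were Wls, the carrier that takes WNT proteins to the cell surface (31.6 ± 3.90 TPM), the receptor Ptk7 (64.9 ± 6.95 TPM), the nuclear co-repressor Tle5 (509 ± 119 TPM), the polarity GTPase Cdc42 (361 ± 43.7 TPM) and the target Tcf7 (77.4 ± 7.16 TPM), with Sfrp4 first among the inhibitors and Ctnnb1 among the transducers. Of these, Wls overlapped within 1 SD with Rspo1 (25.1 ± 4.3 TPM), Ptk7 with the R-spondin receptor Lgr4 (51.7 ± 9.98 TPM) and Tcf7 with Myc (72.1 ± 11.2 TPM). Ror1 at 3.66 TPM was thus a minor receptor transcript beside Ptk7. Between EM and Con, the log2 fold changes of these 5 genes were 0.03 ± 0.09, -0.29 ± 0.11, 0.20 ± 0.21, 0.35 ± 0.17 and -0.02 ± 0.11, with edgeR adjusted p from 0.506 to 0.956. Of 20 receptors 18 were tested, with 10 positive and 8 negative fold changes, and of 13 nuclear factors 2 were positive and 11 negative. In either role 0 were called, and over all genes tested 8296 were positive and 8933 negative.

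Over the 10 fresh libraries, the genes whose log2(CPM + 1) was most like that of Ror1 among 16137 genes were Gss, which encodes glutathione synthetase (Pearson r = 0.976, Spearman rho = 0.976), Mbp (0.975 and 0.964) and Fkbp5, a target of steroid receptors (0.969 and 0.939). Without EM-mGC-4 and Con-mGC-5, the libraries farthest from the median of Ror1, r was 0.949, 0.942 and 0.961. Wnt5a was most like Naip6 (r = 0.93, rho = 0.915), Trim25 (0.923 and 0.939) and Aldh1a3, a retinoic acid-forming enzyme (0.921 and 0.855), with r of 0.922, 0.842 and 0.849 without EM-mGC-2 and Con-mGC-5. Between the 2 genes themselves r was 0.225 and rho 0.0545, and between Ror1 and Sfrp4 r was 0.776. These are the highest of many values and carry no p, since the libraries share their groups and cell mixtures.

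The second comparison asked what 14,15-EET changes in cultured mGCs of EM mice. For the set it is a description, because Ror1 and Wnt5a were selected on it. Of the 10 genes 8 passed the expression filter, and Ror2 and Rspo1 did not. Among these 8, the groups did not overlap for 4 (Ror1, Wnt5a, Fzd2 and Sfrp4), against 17.6% of 15050 genes, and nothing is read from this count.

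Ror1 was at 6.45, 5.89 and 6.19 CPM in PBS-1 to PBS-3 and at 11.2, 11.1 and 11.7 CPM in EET-1 to EET-3, from 136 to 172 and 280 to 329 counts per library. Every EET library lay well above every PBS library. Its log2 fold change was 0.88 ± 0.10 (SE), a ratio of 1.84, and stayed between 0.84 and 0.91 with a library left out. Wnt5a was lower, at 362, 406 and 399 CPM in the PBS group and 322, 319 and 319 CPM in the EET group. Its 3 EET libraries were almost equal, and the gap to PBS-1 was about as wide as the spread among the PBS libraries. This log2 fold change of -0.28 ± 0.05, a ratio of 0.823, ranged from -0.33 to -0.25. The opposite directions of the receptor and the ligand are the ground on which the set was chosen, and nothing is read from them.

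Sfrp4 was at 1650, 2280 and 2710 CPM in the PBS group and 1650, 1470 and 1400 CPM in the EET group. PBS-1 and EET-1 were equal at 3 digits, so that the groups touch. Its log2 fold change of -0.56 ± 0.13 was -0.39 without PBS-3 and -0.73 without PBS-1. Axin2 was at 65.0, 57.3 and 53.1 CPM in the PBS group and 63.8, 72.3 and 74.5 CPM in the EET group (log2 fold change 0.27 ± 0.08). The groups of Axin2 overlapped through PBS-1 and EET-1. Fzd1 was at 37.1 to 44.0 CPM against 32.2 to 37.3 CPM (log2 fold change -0.21 ± 0.08), and Fzd2 at 87.6 to 98.2 CPM against 82.1 to 85.2 CPM (-0.12 ± 0.06).

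Wnt4 and Ctnnb1 were level between the cultured groups, at 90.4 to 111 against 94.8 to 97.0 CPM for Wnt4 (log2 fold change -0.04 ± 0.07) and 944 to 989 against 954 to 984 CPM for Ctnnb1 (0.01 ± 0.05). Ror2 had 8, 2 and 9 counts in the PBS libraries and 9, 4 and 3 in the EET libraries, and Rspo1 had 4, 4 and 3 against 4, 5 and 2 counts, so that no difference was detectable at this depth for either gene.

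Of the other 126 WNT genes, 101 were tested in this comparison. The selection rested on Ror1 and Wnt5a, but the list was drawn up with earlier results of these data known. Its counts and shares are therefore given as a description. Those called higher after 14,15-EET were 2, Lgr6 and Sfrp2, against 0.498% of all genes, and those called lower were 2, Dkk2 and Dkk3, against 0.724%. At an unadjusted p under 0.05 from edgeR there were 12 higher and 12 lower, 23.8% together against 12.4% of all genes. By direction, 6.03% of all genes were higher and 6.38% lower at this threshold. The groups did not overlap for 27 genes, 26.7% of the 101, against 17.6% of all genes. The fold changes were positive for 40 and negative for 61 genes, with a median log2 value of -0.03 beside 0 over all genes. The number of calls depended on the libraries fitted, since 0 were left without EET-2, 1 without EET-3 (Dkk2), 2 without EET-1 (Lgr6 and Dkk3) and 3 without PBS-3 (all but Sfrp2), while 9 were made without PBS-2. The calls over all genes also went from 184 to 61 without EET-2 and to 48 without EET-3, and without EET-2 the log2 fold changes were still -0.48 for Dkk2, -0.47 for Dkk3, 0.42 for Lgr6 and 0.295 for Sfrp2.

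Lgr6, a receptor for R-spondins, was at 16.3, 15.0 and 15.8 CPM in the PBS libraries and 21.4, 23.2 and 20.5 CPM in the EET libraries, and it rose by 0.47 ± 0.08 on the log2 scale (edgeR adjusted p = 0.0109). Sfrp2, a secreted antagonist of the family of Sfrp4, was at 1330, 1190 and 1200 CPM against 1520, 1560 and 1530 CPM. Its log2 fold change was 0.31 ± 0.06 (edgeR adjusted p = 0.0209), and it was higher in all 3 EET libraries, while the values of Sfrp4 lay lower. Among the inhibitors without Sfrp4, 11 were tested and 1 was called higher (Sfrp2) and 2 lower (Dkk2 and Dkk3), against 0.498% and 0.724% of all genes. These are the calls already counted for the list, not further ones.

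Dkk2 and Dkk3, of the Dickkopf family of secreted proteins, both fell. Dkk2, which blocks the LRP co-receptors in many settings, was at 20.2, 23.0 and 21 CPM in the PBS libraries and 14.5, 14.7 and 16.3 CPM in the EET libraries, a log2 fold change of -0.50 ± 0.08 (edgeR adjusted p = 0.0106). In the fresh libraries Dkk2 was at most 0.49 CPM. Dkk3 was at 42.0, 35.6 and 35.5 CPM against 28.8, 26.2 and 25.5 CPM, a log2 fold change of -0.49 ± 0.08 (edgeR adjusted p = 0.0108). The Dishevelled gene Dvl2, which relays the signal inside the cell, just missed the threshold at -0.25 ± 0.05 (edgeR adjusted p = 0.0515), and DESeq2 called it.

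The other targets of β-catenin gave no call. Of 14 without Axin2, 10 were tested, 7 had positive and 3 negative fold changes, and 1 had an unadjusted p under 0.05, Tcf7 at 0.18 ± 0.07 (edgeR adjusted p = 0.279). Myc, per length the highest of the targets in PBS (272 ± 10.4 TPM), had a log2 fold change of 0.05 ± 0.05 (edgeR adjusted p = 0.753). Of 12 tested nuclear factors 2 were positive and 10 negative, with a median log2 value of -0.09 and 0 called. Over all genes tested, 7585 were positive and 7465 negative. Wnt10b, the most abundant WNT ligand per length in the PBS group too (211 ± 7.72 TPM, beside 177 TPM for Wnt5a), was at 206, 191 and 207 CPM in PBS and 211, 216 and 228 CPM in EET, a log2 fold change of 0.12 ± 0.05 (edgeR adjusted p = 0.389). The receptor Ryk (92.5 ± 4.80 TPM in PBS), the receptor with the highest mean there although Fzd2 (88.6 ± 4.34 TPM) overlapped it within 1 SD, had 0.04 ± 0.05 (edgeR adjusted p = 0.774).

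Of the granulosa markers, 8 were tested in culture and 1, Inha, was called lower after 14,15-EET, and of 5 luteal markers 1, Ptgfr, was called higher. Stromal markers summed to 211 to 284 CPM in PBS and 237 to 244 CPM in EET, endothelial ones to at most 4.39 CPM and theca ones to at most 48.5 CPM. Smooth muscle markers summed to 506 to 674 CPM in PBS and 444 to 513 CPM in EET. Of the 6, 3 had positive and 3 negative fold changes and 1, Cnn1, was called lower by edgeR. Most of this sum was Acta2, at 484 to 650 and 419 to 488 CPM. Surface epithelial markers summed to 154 to 169 and 127 to 138 CPM with 1 of 5 tested, Krt18, called lower. Nearly all of that sum was Krt8 and Krt18, and each other marker of the list was at most 1.89 CPM. The part of these marker differences in the values of the WNT genes was not tested.

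**Figure D3:**
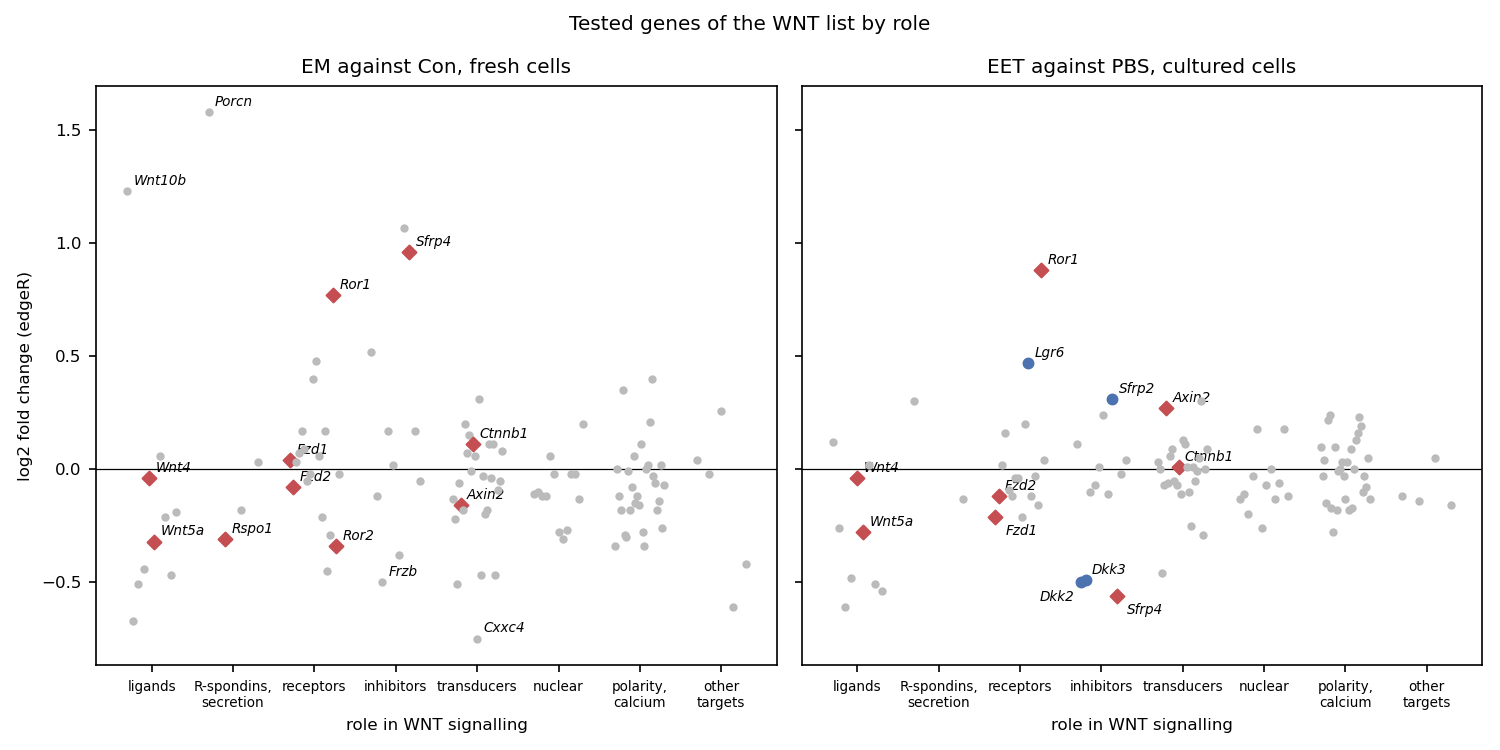
Log2 fold changes from edgeR of the tested genes of the WNT list, grouped by role, in EM against Con (left, 113 genes) and EET against PBS (right, 109 genes), with 1 point per gene. Red diamonds are the described set, shown without a test on the right, blue points are the other genes called at an adjusted p under 0.05 (Lgr6, Sfrp2, Dkk2 and Dkk3), and grey points are the rest.

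Fresh and cultured EM cells were set side by side through the medians of the EM and PBS groups. These came from separate tables and animals, so culture, experiment and mice cannot be told apart, and no test was made. Wnt5a was 19.3 times as high in the PBS median as in the EM median, with 362 to 406 CPM in PBS against 15.3 to 36.0 CPM in EM, and was 1 of 3 genes among 114 of the WNT list at least 8-fold higher, beside Sfrp2 and Dkk2. Over all 16225 genes with a median of at least 1 CPM in either group, 1.4% were at least 8-fold higher and 13% at least 8-fold lower. Fzd2 had a ratio of 4.40, Axin2 of 2.43, Fzd1 of 1.86, Wnt4 of 1.39 and Ctnnb1 of 1.37, beside a median of 1.18 over the WNT list and of 0.788 over all genes. Per length, in TPM, the ratios were 23.0 for Wnt5a, 5.62 for Fzd2 and 3.69 for Axin2. Sfrp4 had a ratio of 0.931 in CPM and of 1.21 in TPM, on either side of 1, and EM libraries ranged from 688 to 2700 CPM. Wls, needed to release WNT proteins, was at 72.9 to 93.8 CPM in fresh EM cells and 473 to 538 CPM in PBS cells.

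In the other direction, Rspo1 went from 6.05 to 18.7 CPM in EM libraries to 0.108 to 0.190 CPM in PBS libraries, that is from 92 to 269 counts to 3 or 4. Ror2 was at 1.12 to 2.79 CPM in EM and 0.0769 to 0.380 CPM in PBS, while Ror1 had a ratio of 0.555 in CPM and 0.662 in TPM. With Rspo1, 14 of the 114 WNT genes were at least 8-fold lower in PBS, among them Rspo2, Lgr5, Wnt6, Wnt2b, Lef1 and Frzb. This share is near the 13% over all 16225 genes, and nothing is read from the count. Rspo2, a second R-spondin, was at 3.48, 32.8, 44.6, 9.48 and 18.6 CPM in EM-mGC-1 to EM-mGC-5. It had 0 counts in all 6 cultured libraries. Its EM median of 18.6 CPM was at least 131-fold above the level of 3 counts in the shallowest PBS library. The summed oocyte markers ranked the EM libraries in the same order, at 89.3, 620, 745, 213 and 428 CPM in EM-mGC-1 to EM-mGC-5. The R-spondin receptor Lgr5 was at 55.1, 13.5, 11.1, 24.5 and 75.1 CPM in EM and at most 0.115 CPM in PBS. Sums of endothelial, red blood, oocyte, leukocyte, stromal, theca, granulosa and luteal markers were lower in PBS than in EM too. Endothelial sums were 3.53 to 4.39 against 81.3 to 146 CPM, and oocyte sums 1.04 to 1.19 against 89.3 to 745 CPM. Leukocyte sums were 9.58 to 11.5 against 273 to 683 CPM, and stromal sums 211 to 284 against 641 to 1490 CPM. Of the theca markers Ptch1 was nearly level, at 42.8 to 47.6 against 40.7 to 54.1 CPM. Surface epithelial sums overlapped, although all their markers but Krt8 and Krt18 were lower in PBS. Smooth muscle sums were higher, at 506 to 674 against 115 to 300 CPM. The part of these cells in the fresh levels of the WNT genes was not tested.

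**Figure D4:**
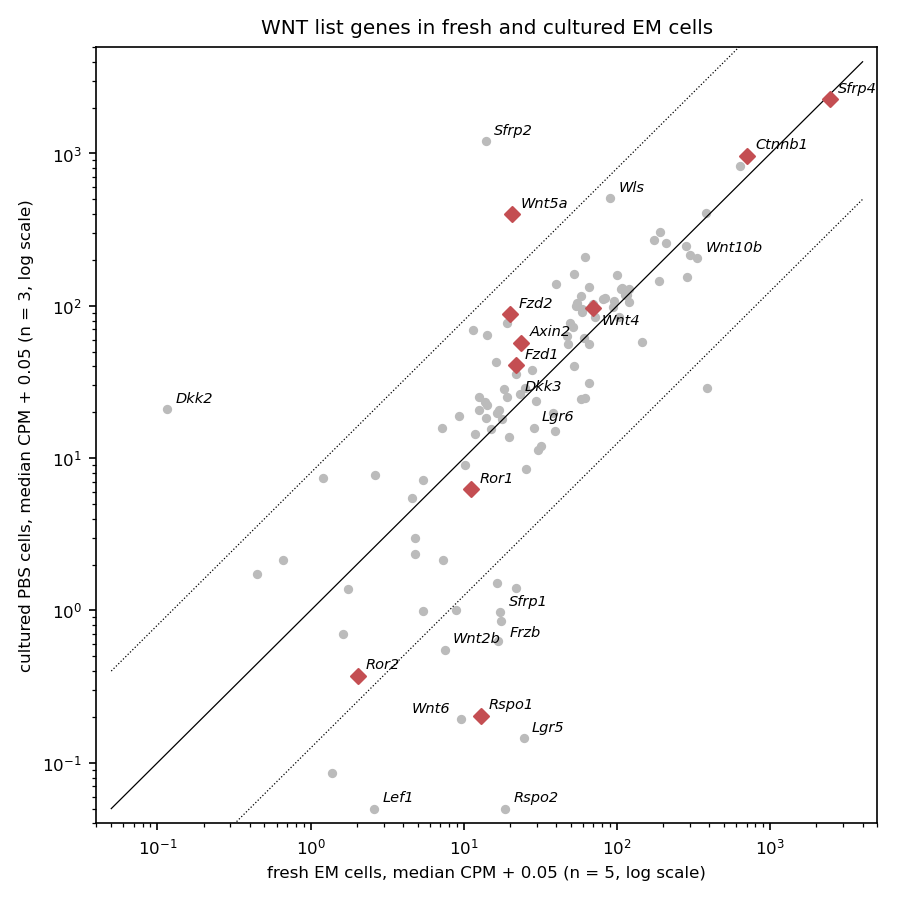
Median CPM of WNT list genes in fresh EM libraries (x axis, n = 5) and cultured PBS libraries (y axis, n = 3), both on log scales after adding 0.05 CPM, with the line of equality and dotted lines at 8-fold. Red diamonds are the described set, of which Wnt5a lies above the upper dotted line and Rspo1 below the lower one.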

How the data were processed

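RNA was sequenced from 10 fresh (Con, EM) and 6 cultured (PBS, EET) mGC libraries made with a stranded poly(A) kit. The authors deposited raw counts per Ensembl gene from featureCounts, without normalization, as 2 tables of 57010 genes, with 0 columns unused. The submitters' processing notes name fastp, HISAT2, StringTie and GRCm39. The strand setting and the treatment of shared reads are not given in the sources used here, so overlapping and antisense genes are uncertain. The methods say that cells of 6 EM mice were divided and gave 3 paired replicates, so p-values of the cultured libraries measure the spread between these libraries.

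Each table was analysed alone with R 4.3.3 and edgeR 4.0.16 (filterByExpr by group, TMM, quasi-likelihood test, Benjamini-Hochberg over all genes tested, threshold 0.05), which was tested on simulated counts. CPM are TMM-normalized, and the SE is the log2 fold change over the root of F. TPM use exon lengths of GENCODE M21, known for 52081 genes, since the deposited coordinates are of another build (1512 of these genes share their start). Alternatives were each library left out, the replicate number as a block, DESeq2 1.42.0, normalization by upper quartile or RLE, and filters of none or of 10 counts per library. Counting error limits genes with few counts, and library totals of 14229123 to 29482826 bound that precision.

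The genes, the WNT list and the marker lists were chosen with earlier results of these data known. Named genes are the set itself, other WNT genes passing the test (or, where none did, the 3 with the lowest p), the most abundant tested gene of each role, and the 3 genes most like Ror1 and Wnt5a among those with a mean of at least 1 CPM. Genes named for the side-by-side view of fresh and cultured cells, Dvl2 and the 8-fold limit were chosen after their values were seen.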

Additional observations from a re-analysis of the deposited data

Results flagged for a closer look

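For the 10 genes and 7 other WNT genes, no library passed Dixon's criterion in a group of 5 fresh libraries (0 of 34 groups, critical value 0.71), where chance gives about 1 in 20. The closest was Porcn in EM-mGC-5, at 137 CPM against 7.88 to 46.3 CPM in the other EM libraries, whose gap to the nearest library was 0.703 of the range of the group. Groups of 3 were not examined.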

How the results depend on the processing

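Between EM and Con, 0 of the 10 genes were called under any of the alternatives, and of the WNT list 0 were called except under DESeq2, which called 1 (Cxxc4). The fold change of Wnt4 turned from -0.04 to 0.0378 with the replicate block and ranged from -0.205 to 0.261 with a library left out, and that of Fzd1 ranged from -0.0357 to 0.111. For the other genes recomputed in this comparison the direction stayed the same. In EET against PBS, the values of Wnt4 (-0.107 to 0.0412) and Ctnnb1 (-0.0108 to 0.0263) lay on both sides of 0 with a library left out. There, the other WNT genes called higher were 2 in the fit reported, 5 without a filter and 0 to 6 with a library left out, and those called lower were 2, 4 and 0 to 3. Without EET-2 both counts were 0, and without EET-3 they were 0 and 1 (the cause was not tested). The counts without PBS-2 were 6 and 3, without PBS-3 1 and 2, and without EET-1 1 and 1. Lower calls were 3 under DESeq2, upper-quartile normalization and the 10-count filter.

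The replicate numbers were not taken as pairs, since deviations from the group means correlated by only 0.0602, 0.0980 and -0.0237 between PBS and EET libraries of equal number. With the number as a replicate block, 3 other WNT genes were called higher and 3 lower, and 341 of all genes against 184 without it. It changed no call between EM and Con (0 genes of the set and 0 of the list).

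With 5 mice a group and this spread, changes of the size seen for Ror1 and Sfrp4 did not pass the adjustment. In culture, Ror2 (2 to 9 counts) and Rspo1 (2 to 5 counts) are limited by depth.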
